A study of Homo sapiens with 18 samples.

Results

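The clustered protocadherin locus on the long arm of chromosome 5 was described from open-chromatin peaks in 2 neuroblastoma cell lines, Kelly and BE2C. Its members are the ATAC-seq peaks whose summits lie at chr5:140160000-140900000 (hg19), a window of 740 kb that holds the alpha, beta and gamma clusters. Over 18 peak lists, 382 of 781454 peaks fell there, 0.0489% of the total. ATAC-seq cuts DNA with a transposase where it is not wrapped in nucleosomes, and a peak is a stretch with more cuts than its surroundings.

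Both lines are established MYCN-amplified neuroblastoma lines. Each was transduced with lentivirus carrying the empty vector pLKO, the hairpin shAhR-1 or the hairpin shAhR-2, the hairpins both directed against AHR, the aryl hydrocarbon receptor. There were 3 libraries in each of the 6 groups, and all of them, controls included, came from transduced cells. The labels do not say that the libraries of a group came from separate cultures, so the p-values measure the spread between libraries, which may be technical. Knockdown of AHR and the identity of the lines were not checked here, because peak lists hold no RNA levels.

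Clustered protocadherins are cell-surface adhesion proteins of neurons that bind copies of themselves on neighbouring cells. In the alpha and gamma clusters each variable exon has its own promoter and is spliced to constant exons shared by the cluster, whereas the beta genes have no shared constant exons. Neurons use a small and varied choice of these promoters, a choice that involves the insulator protein CTCF, cohesin and distant enhancers, while the C-type genes at the ends of the alpha and gamma clusters are used more broadly. In RefSeq's gene order the alpha genes come first, then the beta genes, then SLC25A2 (a mitochondrial carrier) and TAF7 (a subunit of a general transcription factor), then the gamma genes and DIAPH1 (a regulator of actin filaments).

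Most promoters of these genes, though not all, share a short box whose letters include CGCT. The sequences are shown because that box is the feature by which the promoters of the family are recognised. RefSeq listed 53 coding genes of the family, 15 alpha, 16 beta and 22 gamma, and a promoter sequence was matched by symbol for 47 of them. Each sequence ran from 250 bases before to 50 bases after the annotated start. The letters CGCT on either strand stood in 46 of the 47 promoters (97.9%), against 68.8% of 27305 RefSeq promoters of the same length. On the gene's own strand and starting between 90 and 30 bases before the start, they stood in 42 of the 47 (89.4%), against 18.8% of all promoters. That interval was chosen after the positions had been seen. These matches, with a single match kept per promoter, are called boxes below. They began 38 to 84 bases before the start, with a median of 56. Whether each match is the box shared by the family was not tested. The letters are a description of the reference and not of these cells, and they were read from GRCh38.p14, a different build from that of the peaks.

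**Figure D1:**
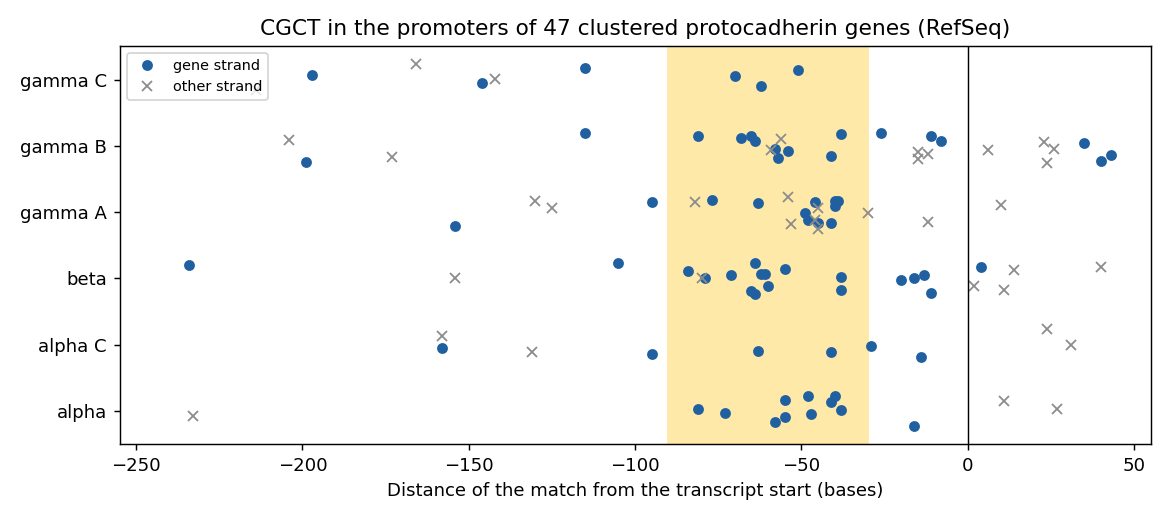
Position of the letters CGCT in the RefSeq promoters of the clustered protocadherin genes, in bases from the annotated start, by group of genes; dots are matches on the gene strand, crosses matches on the other strand, and the vertical line is the start. The shaded band spans matches that begin 90 to 30 bases before the start, where 42 of the 47 promoters hold the letters on the gene strand.

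The stretches below are 34 bases each, read 5′ to 3′ on the plus strand, which is the gene strand, with the box in capitals. All 10 alpha boxes (C-type genes apart) followed the letters GT, while the bases after the box varied between genes, and 2 of them are shown:
PCDHA1 (chr5:140786082-140786115, GRCh38.p14): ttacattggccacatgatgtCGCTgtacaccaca
PCDHA2 (chr5:140794777-140794810, GRCh38.p14): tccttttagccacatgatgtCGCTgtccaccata
Of the 12 beta boxes, 11 followed GG, and PCDHB1 was the exception:
PCDHB1 (chr5:141051270-141051303, GRCh38.p14): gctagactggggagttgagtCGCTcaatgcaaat
PCDHB2 (chr5:141094540-141094573, GRCh38.p14): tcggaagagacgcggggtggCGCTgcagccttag
PCDHB7 (chr5:141172562-141172595, GRCh38.p14): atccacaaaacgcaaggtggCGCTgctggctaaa
PCDHB9 (chr5:141187070-141187103, GRCh38.p14): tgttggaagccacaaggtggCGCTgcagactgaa
PCDHB7 and PCDHB9 were the 2 promoters of the family that also held the letters of a longer CTCF core that ends in GGCGCT and so overlaps the box, searched on both strands. That is 4.26% of the 47, against 2.36% of all promoters. The counts before the box depend on which match was kept. PCDHGB4, PCDHGB5, PCDHGB6 and PCDHGC3 each held 2 matches in the interval, and the match nearer the median position was counted. In PCDHGB6, for example, the matches lay 81 and 57 bases before the start, and the latter was counted. In the gamma A group, GT and GC each came before 5 of 10 boxes, and in the gamma B group GC came before 4 of 6:
PCDHGA2 (chr5:141338699-141338732, GRCh38.p14): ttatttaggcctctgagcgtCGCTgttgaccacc
PCDHGA3 (chr5:141343763-141343796, GRCh38.p14): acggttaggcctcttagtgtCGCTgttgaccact
PCDHGB1 (chr5:141350021-141350054, GRCh38.p14): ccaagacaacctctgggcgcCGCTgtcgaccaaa
PCDHGB3 (chr5:141370158-141370191, GRCh38.p14): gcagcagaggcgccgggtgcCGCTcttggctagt
Matches in the C-type promoters had different neighbours from one gene to the next, and whether they are the family's shared box was not tested:
PCDHAC1 (chr5:140926216-140926249, GRCh38.p14): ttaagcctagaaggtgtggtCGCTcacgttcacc
PCDHAC2 (chr5:140966415-140966448, GRCh38.p14): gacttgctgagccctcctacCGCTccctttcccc
PCDHGC4 (chr5:141484948-141484981, GRCh38.p14): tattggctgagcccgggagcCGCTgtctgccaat
Over the 42 boxes the next base was G in 33, C in 8 and A in 1. Because no gene positions on hg19 were used, the peaks below are given by position and were not assigned to variable exons or enhancers. Some may belong to SLC25A2 or TAF7, which stand between the beta and gamma genes, or to DIAPH1, which follows the gamma genes.

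Peaks that overlapped by at least 1 base were merged into regions, which gave 66 regions numbered along the chromosome. Together they covered 48028 bases, 6.49% of the window, with a median width of 644 bases and a range of 188 to 2301. Only 4 regions held a peak in all 18 lists and 9 in at least 15, while 38 were in 2 to 14 lists and 19 in 1 list. Of those 19, 17 came from a shAhR-2 library. Peaks were listed in both lines at 27 regions, in Kelly only at 25 and in BE2C only at 14. Of the 25 Kelly-only regions, 19 were in no library other than shAhR-2. The matching shares over all regions were not counted, so these counts do not show whether the window differs from the genome.

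**Figure D2:**
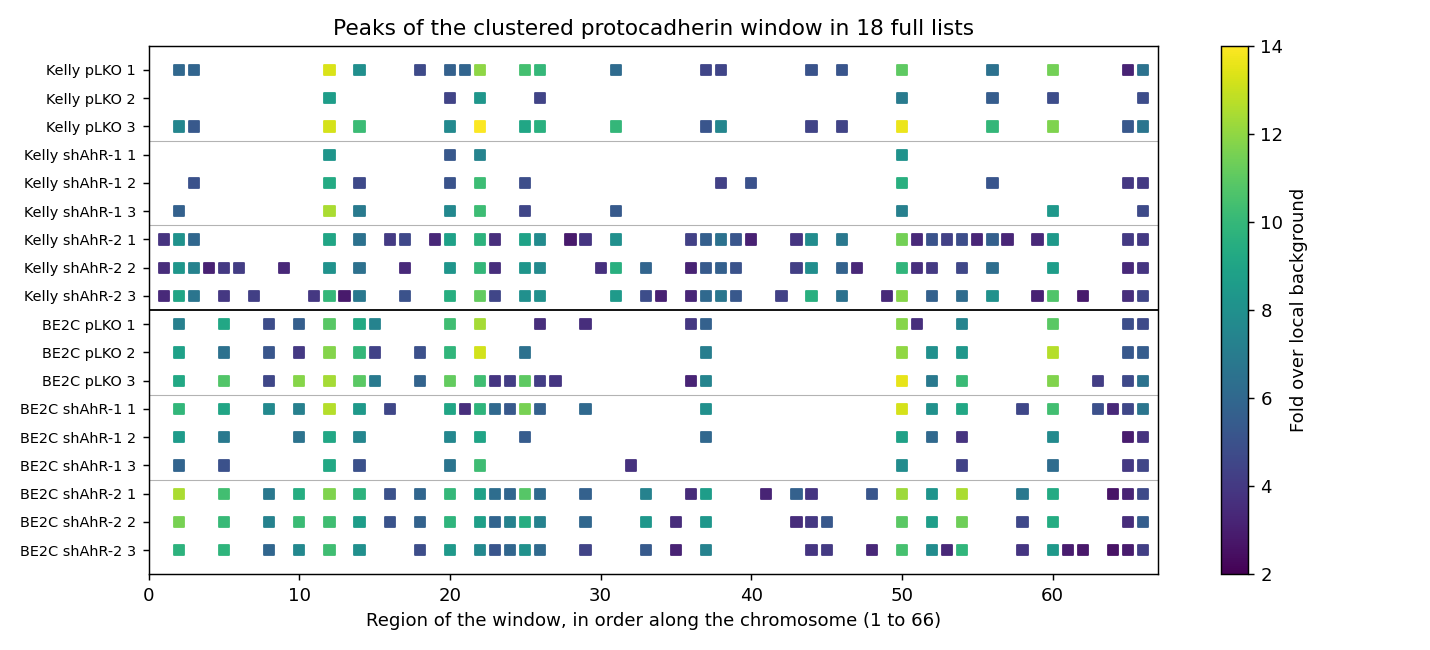
Peaks of the window in the full lists, with the 66 regions in chromosome order on the horizontal axis (not to genomic scale) and 1 row per library; a mark is a listed peak and its colour is the fold over local background at the summit. Columns that run through all 18 rows are regions 12, 20, 22 and 50, and the rows of the shAhR-2 libraries hold the most marks.

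The regions were spaced unevenly. Among the 38 regions found in at least 3 lists, neighbours lay a median of 12.5 kb apart, and 11 gaps were longer than 25 kb. The longest of these gaps, 74.2 kb, held 3 regions found in 1 or 2 lists and ended at the start of region 50 (chr5:140699675-140700888, hg19).

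Read depth was not known, since the lists give no counts, and the lists differed in length, between 9204 and 81637 peaks. The shortest list was Kelly shAhR-1 replicate 1, and the shAhR-2 lists held the most window peaks. In the order of replicates 1 to 3, Kelly had 20, 8 and 18 window peaks with pLKO, 4, 12 and 10 with shAhR-1, and 36, 34 and 35 with shAhR-2. BE2C had 19, 18 and 24 with pLKO, 25, 15 and 15 with shAhR-1, and 30, 28 and 31 with shAhR-2. Within each line the shAhR-2 libraries lay above all the others. Relative to list length they did not: per 10000 peaks of a list, the window held 5.24 ± 1.08 (SD, n = 3) in Kelly with pLKO, 4.49 ± 0.377 with shAhR-1 and 5.50 ± 0.157 with shAhR-2. The same share in BE2C was 5.29 ± 0.319, 5.64 ± 0.177 and 3.79 ± 0.175. Lists were therefore compared after each had been cut to equal length, keeping the peaks with the highest −log10 p.

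Cut to 9204 peaks each, the lists still held between 3 and 8 window peaks. For comparison, 3883 windows of the same size were used, those of the genome that held a peak in any full list. Their mean was 2.37 peaks per list and their median was 2. Depending on the library, the protocadherin window held more peaks than 63.0% to 95.5% of them.

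At that length, 3 regions were present in all 18 lists. For each peak the fold is the authors' enrichment over local background at the summit, which ranks peaks within a list and was not compared between lists by a test. Region 12 (chr5:140305573-140306851, hg19) spanned 1279 bases and its summits lay within 193 bases. Its folds in Kelly were 13.3, 8.64 and 13.2 with pLKO, 8.24, 9.29 and 12.5 with shAhR-1, and 9.07, 8.08 and 9.98 with shAhR-2. In BE2C they were 10.9, 11.8 and 12.4 with pLKO, 12.7, 9.15 and 9.18 with shAhR-1, and 11.7, 10.3 and 10.3 with shAhR-2. The groups overlapped, and this peak ranked between the 83.2 and 96.6 percentile of its list by −log10 p.

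Region 22 (chr5:140419326-140421004, hg19) was the widest of the 3, at 1679 bases. Kelly gave folds of 11.9, 8.31 and 13.9 with pLKO, 7.36, 10.2 and 10.2 with shAhR-1, and 9.70, 9.95 and 11.1 with shAhR-2. BE2C gave 12.4, 13.2 and 10.3 with pLKO, 9.79, 9.02 and 10.3 with shAhR-1, and 8.89, 8.72 and 7.58 with shAhR-2. The 3 BE2C shAhR-2 values were lower than the 6 other BE2C values, while the groups of Kelly overlapped.

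Region 50 (chr5:140699675-140700888, hg19) had the tightest summits of the 3, within 129 bases. Like the others, it was not assigned to a protocadherin or to any other gene. The folds of region 50 in Kelly were 11.03, 6.95 and 13.6 with pLKO, 8.12, 9.57 and 7.18 with shAhR-1, and 11.4, 9.83 and 11.8 with shAhR-2. In BE2C they were 11.8, 12.02 and 13.5, then 13.2, 8.85 and 7.79, then 12.2, 10.9 and 10.5 for the same 3 conditions. The 3 Kelly shAhR-1 values were below the 3 Kelly shAhR-2 values, while the other groups of a line overlapped. The peak ranked between the 65.2 and 96.1 percentile of its list by −log10 p. Median folds over whole lists also differed between groups, from 4.42 to 5.22 in the BE2C shAhR-2 lists and from 5.25 to 6.91 in the Kelly pLKO lists, and their part in these values was not tested.

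Several other regions were found in nearly every full list but in fewer of the cut lists. Region 20 (chr5:140380979-140382263, hg19) was in all 18 full lists. Kelly folds there were 5.68, 4.39 and 7.64 with pLKO, 5.24, 5.06 and 7.59 with shAhR-1, and 8.81, 8.24 and 9.51 with shAhR-2. BE2C folds were 10.3, 9.87 and 11.1, then 9.06, 7.54 and 6.60, then 10.0, 9.79 and 8.45. All 3 Kelly shAhR-2 libraries lay above the 6 other Kelly libraries, and the BE2C pLKO libraries lay above all 3 Kelly pLKO libraries.

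Region 60 (chr5:140855156-140856810, hg19) was in 16 lists, with summits within 75 bases. Kelly values were 11.5, 4.78 and 11.7 with pLKO, a single 8.39 with shAhR-1 (replicate 3), and 8.46, 8.61 and 10.7 with shAhR-2. BE2C values were 10.9, 12.7 and 11.7, then 10.4, 7.68 and 6.18, then 9.27, 9.36 and 8.45. Its 2 missing peaks were both in Kelly shAhR-1.

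Region 14 (chr5:140345531-140346780, hg19) was also in 16 lists, and region 2 (chr5:140174150-140175252, hg19) in 15. At region 14 the Kelly folds ran from 4.66 to 10.2 and the BE2C folds from 4.98 to 10.9. At region 2 they ran from 5.68 to 9.07 in Kelly and from 5.81 to 12.5 in BE2C. Every missing peak of these regions was in Kelly, in pLKO replicate 2 and shAhR-1 replicate 1 at both and in shAhR-1 replicate 2 at region 2.

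At the far end of the window lay regions 65 (chr5:140888023-140889042, hg19), in 15 lists, and 66 (chr5:140892098-140894398, hg19), in 17. Their folds were lower, 2.85 to 5.26 at region 65 and 3.76 to 6.69 at region 66. Region 66 was the widest of the window, and its summits lay up to 1970 bases apart, so it may join more than one peak. The selection of regions by their number of lists, beyond the 3 present in all cut lists, was made after the values had been seen.

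The lines were compared first by the number of window peaks. In lists of 9204 peaks, Kelly had 5, 4 and 6 window peaks with pLKO, 4, 3 and 6 with shAhR-1, and 4, 4 and 5 with shAhR-2. BE2C had 6, 6 and 7, then 6, 7 and 4, then 8, 7 and 6. The mean was 4.56 ± 1.01 (SD, n = 9) in Kelly and 6.33 ± 1.12 (SD, n = 9) in BE2C, and the lines overlapped. The difference of 1.78 peaks passed the exact permutation test with labels exchanged within condition (p = 0.0103, adjusted over 4 comparisons 0.041).

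The call was lost under other settings. With the full lists the difference was 3.11 peaks (adjusted exact p = 0.517). With lists cut to equal length within each condition, an alternative chosen after seeing the data, it turned to −1 peak, with means of 15.1 in BE2C and 16.1 in Kelly (exact p = 0.502, not adjusted). Leaving out 1 library at a time gave 0.944 to 2.06, and 7 of the 18 omissions ended the call. These were Kelly pLKO replicate 2, Kelly shAhR-1 replicates 1 and 2, Kelly shAhR-2 replicates 1 and 2, and BE2C shAhR-1 replicates 1 and 2.

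**Figure D3:**
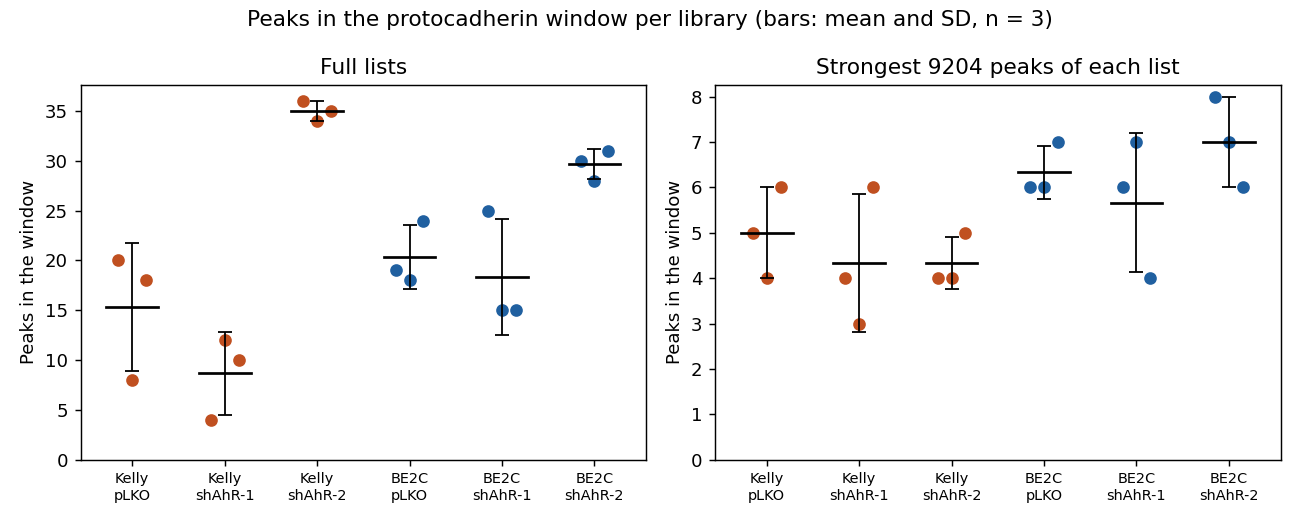
Number of window peaks per library by line and condition, in the full lists and in lists cut to equal length; each point is a library, and the lines give the group mean and SD (n = 3). In the full lists the shAhR-2 libraries are highest in both lines, and in lists of 9204 peaks Kelly libraries sit between 3 and 6 and BE2C libraries between 4 and 8.

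The peaks of the cut lists fell in 9 regions. Regions 12, 22 and 50 contributed 9 libraries in each line. Region 14 was present in 7 BE2C and 2 Kelly libraries, region 60 in 8 and 4, region 20 in 8 and 5, and region 2 in 4 and 0. Region 54 was present in 1 BE2C library, and region 66 in 2 BE2C and 3 Kelly libraries.

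Region by region, 0 of the 9 were called different between the lines by the exact permutation test with Benjamini-Hochberg adjustment over all regions, where 2.85% of 19921 regions were called. None of the 9 had an unadjusted p under 0.05; region 2 had the lowest (exact p = 0.05, adjusted 0.33). In the full lists 0 of 66 were called (0.564% of all regions), with 10 at an unadjusted p under 0.05, 5 in each direction. Without BE2C shAhR-1 replicate 3, an omission examined after seeing the data, the full lists gave 2 of 65, regions 8 and 10, both with more BE2C libraries (2.04% of all regions were called, 1.89% in that direction). That library had no peak at either region, so its omission favours these calls, and no conclusion is drawn from them. No other single omission called a window region in the full lists. Cutting within each condition called 0 of 56 window regions and 0 of 110221 in all (0%), and 1 of the 56 had an unadjusted p under 0.05. A setting that called no region in the genome cannot tell whether the window differs, so no conclusion is drawn from it.

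Leaving out Kelly shAhR-1 replicate 1, whose list sets the common length, gave longer lists, and then 3 of 24 regions were called, all with more BE2C libraries (5.12% of all regions were called, 3.21% in that direction). Region 5 (chr5:140220651-140221650, hg19) had a cut-list peak in 8 BE2C and 0 Kelly libraries (exact p = 0.001, adjusted 0.024). In full lists its BE2C folds were 9.16, 6.41 and 10.8 with pLKO, 9.06, 6.85 and 4.98 with shAhR-1, and 10.4, 10.1 and 9.83 with shAhR-2. In Kelly it was listed only with shAhR-2, at 4.01 and 3.93 in replicates 2 and 3. Every BE2C value lay above both Kelly values.

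Region 37 (chr5:140561640-140562860, hg19) likewise had a cut-list peak in 8 BE2C and 0 Kelly libraries (exact p = 0.001, adjusted 0.024). Its full-list folds were 5.66 to 8.64 in 8 BE2C libraries and 4.46 to 6.05 in 5 Kelly libraries, so the lines overlapped. Region 54 (chr5:140729528-140730352, hg19) had 7 against 0 (exact p = 0.0025, adjusted 0.0488). Its folds in BE2C were 7.41, 8.35 and 10.1 with pLKO, 9.16, 3.78 and 4.38 with shAhR-1, and 12.5, 11.4 and 9.85 with shAhR-2. In Kelly it was listed only in the shAhR-2 libraries, at 4.85, 4.55 and 6.18. The BE2C shAhR-1 replicates 2 and 3 were below these, and the 7 other BE2C libraries were above them.

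Within a condition, 3 libraries against 3 cannot give an exact p under 0.1, so regions were counted as line-only when all 3 libraries of a line and none of the other had a peak in lists of equal length. With shAhR-2, where the lists were longest, 13 of 54 window regions (24.1%) were line-only, against 14.8% of all regions, and 8 of them were Kelly-only (5.55% of all regions) and 5 BE2C-only (9.29%). With pLKO there were 3 of 21 (14.3%), against 12.9% of all regions. With shAhR-1 there were 0 of 8, against 7.11%. No test of these shares was run.

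**Figure D4:**
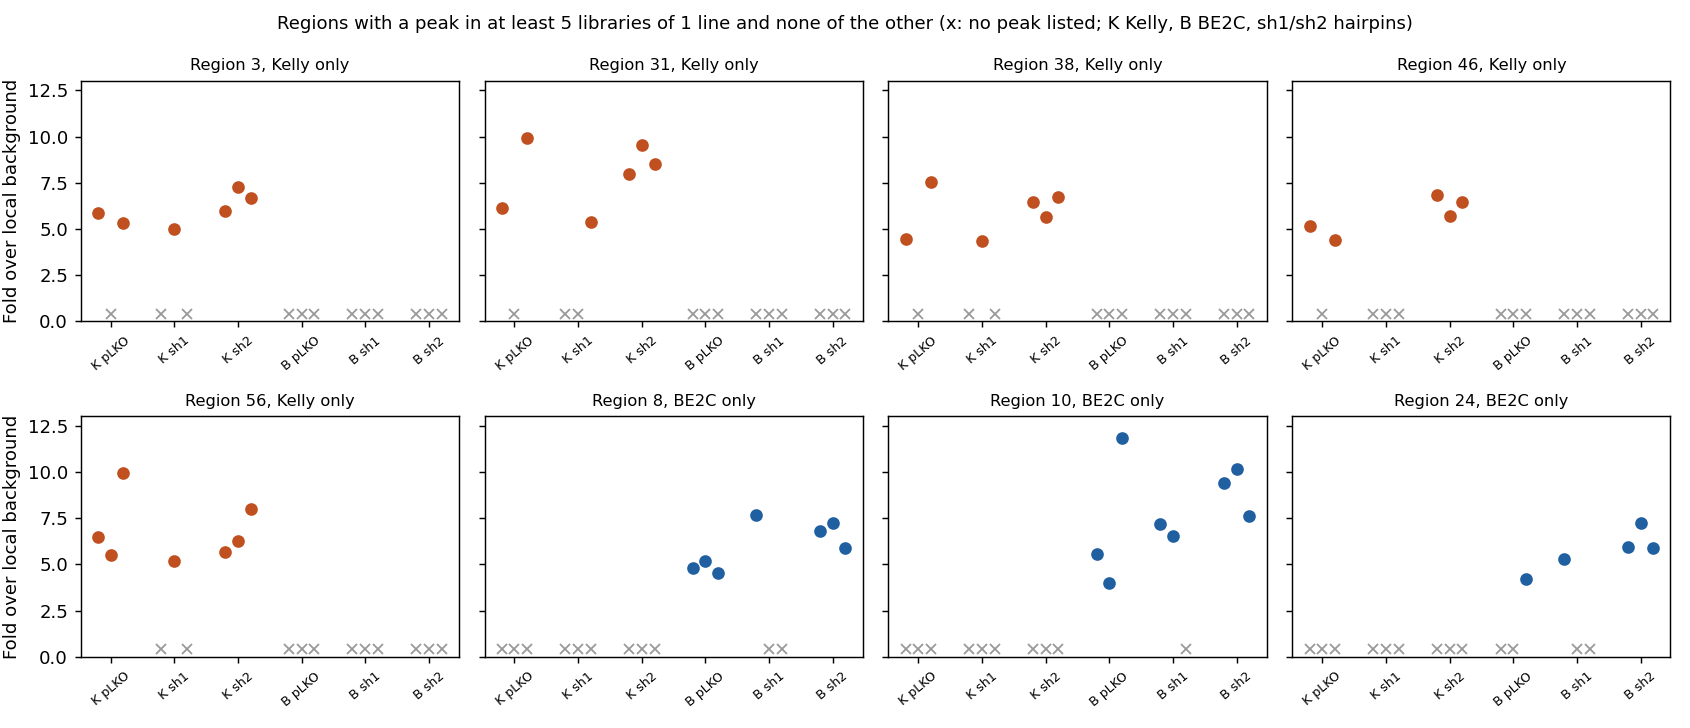
Fold over local background (linear scale) in the full lists at the 8 regions with a peak in at least 5 libraries of a line and none of the other, by line (K Kelly, B BE2C) and condition (sh1 shAhR-1, sh2 shAhR-2). Each point is a library and a cross marks a library with no listed peak. Points are only in Kelly at 5 regions and only in BE2C at 3, and the share of such regions over the genome was not counted.

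All 8 Kelly-only regions had no peak in any full BE2C list, under any condition, and 5 of them were also found in Kelly libraries without shAhR-2. The remaining 3 were found with shAhR-2 alone: region 1 (chr5:140165625-140165998, hg19) at 3.37 to 3.79, region 17 (chr5:140365480-140366132, hg19) at 3.37 to 5.002 and region 39 (chr5:140578907-140579699, hg19) at 5.07 to 5.25. The other 5 follow. Region 56 (chr5:140777202-140777836, hg19) was the most frequent, with folds of 6.49, 5.48 and 9.95 with pLKO, 5.18 with shAhR-1 replicate 2, and 5.65, 6.29 and 8.02 with shAhR-2. The exact permutation p in full lists was 0.0025 and the adjusted p was 0.124, so it was not called. The values with pLKO and with shAhR-2 overlapped.

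Region 31 (chr5:140514681-140515674, hg19) had folds of 6.13 and 9.94 in pLKO replicates 1 and 3, 5.35 in shAhR-1 replicate 3, and 7.96, 9.55 and 8.50 with shAhR-2. Regions 3 (chr5:140180542-140181580, hg19) and 38 (chr5:140571636-140572657, hg19) were in the same pLKO libraries, in shAhR-1 replicate 2 and in all shAhR-2 libraries. Their folds were 5.02 to 7.25 and 4.34 to 7.53. Region 46 (chr5:140624674-140625507, hg19) was in 5 Kelly libraries at 4.43 to 6.82, at the near side of the 74.2 kb gap among regions in at least 3 lists. All 5 of these regions lacked a peak in Kelly shAhR-1 replicate 1, the shortest list, and all but region 56 lacked one in Kelly pLKO replicate 2.

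All 5 BE2C-only regions were in more than 3 BE2C libraries, and 4 had no peak in any Kelly list. Region 10 (chr5:140248414-140249390, hg19) was the most frequent, with folds of 5.57, 4.01 and 11.8 with pLKO, 7.19 and 6.55 in shAhR-1 replicates 1 and 2, and 9.41, 10.2 and 7.60 with shAhR-2. Its full-list test was the lowest of the window (exact permutation p = 0.001, adjusted 0.072) and was not called. Without BE2C shAhR-1 replicate 3, which had no peak there, it was called (8 BE2C against 0 Kelly libraries, exact permutation p = 0.00025, adjusted 0.0304). The omitted library was the only BE2C library without a peak at region 10, so no conclusion is drawn from that call. The pLKO values alone spanned the whole range of the other libraries.

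Region 8 (chr5:140235406-140236315, hg19) had folds of 4.78, 5.21 and 4.55 with pLKO, 7.67 in shAhR-1 replicate 1, and 6.83, 7.26 and 5.90 with shAhR-2. Here every listed value under a hairpin was above the 3 pLKO values, but shAhR-1 replicates 2 and 3 had no listed peak. In the full lists it was not called (exact permutation p = 0.0025, adjusted 0.124), and without BE2C shAhR-1 replicate 3 it was (7 against 0 libraries, exact permutation p = 0.001, adjusted 0.0491). As the omitted library had no peak there, no conclusion is drawn from the latter call. Region 24 (chr5:140456904-140457969, hg19) was in pLKO replicate 3 at 4.20, in shAhR-1 replicate 1 at 5.30, and in shAhR-2 at 5.92, 7.26 and 5.90. Region 58 (chr5:140797142-140797506, hg19) was in 4 BE2C libraries at 3.87 to 6.83, and region 18 (chr5:140367438-140368123, hg19) was in 5 BE2C libraries and in Kelly pLKO replicate 1, at 4.69 to 5.92.

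The pLKO libraries gave 1 Kelly-only region, region 26 (chr5:140473871-140475034, hg19), which was not restricted to Kelly in the full lists. Its Kelly folds were 9.98, 4.42 and 9.60 with pLKO and 7.73, 7.71 and 8.01 with shAhR-2, and no Kelly shAhR-1 library had a listed peak there. In BE2C it was listed at 3.58 and 4.20 in pLKO replicates 1 and 3, at 5.68 in shAhR-1 replicate 1, and at 6.14, 7.26 and 6.08 with shAhR-2. The Kelly shAhR-2 values lay above all BE2C values. The BE2C-only regions with pLKO were 37 and 54, described above.

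The sharing of regions between libraries was summarised by the Jaccard index, the number of window regions in both of 2 lists over the number in either. With shAhR-2 its mean was 0.654 among Kelly libraries, 0.863 among BE2C libraries and 0.444 between the lines, against 0.601, 0.770 and 0.469 over all regions. With pLKO it was 0.603, 0.773 and 0.466, against 0.696, 0.770 and 0.552. With shAhR-1, where the cut lists were shortest, it was 0.639, 0.621 and 0.684, against 0.546, 0.669 and 0.494. Between the lines the window's index was thus above that of all regions with shAhR-1 and below it with pLKO and shAhR-2. The indices are given as a description.

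The hairpins were compared with the empty vector in lists cut to equal length within a line, 9204 peaks in Kelly and 25660 in BE2C. No difference in the number of window peaks passed the test. Per 10000 peaks, shAhR-1 averaged 5.34 and pLKO 5.64, a difference of −0.297 (exact permutation p = 0.725, adjusted 0.73). For shAhR-2 the mean was 5.15, a difference from pLKO of −0.492 (exact permutation p = 0.305, adjusted 0.61). The hairpins differed from each other by −0.195 (exact permutation p and adjusted p = 0.73).

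Both signs occurred within the lines. In Kelly the difference from pLKO was −0.724 for each hairpin (exact permutation p = 0.8 for shAhR-1 and 0.7 for shAhR-2). In BE2C it was 0.130 for shAhR-1 and −0.260 for shAhR-2 (exact permutation p = 1 and 0.7). The difference between the lines was itself tested and did not pass (exact permutation p = 0.55, 0.7 and 0.73 for the 3 comparisons). Leaving out Kelly shAhR-1 replicate 1 turned the shAhR-1 difference to 0.0233, and leaving out replicate 2 to 0.065.

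Single regions were called between conditions when all 3 libraries of a group and none of the other had a peak, with no test. Between shAhR-2 and pLKO, 2 of 7 window regions were called in Kelly, where 5.73% of all regions were called, and 1 of 19 in BE2C (6.79%). Region 20 was the Kelly gain: its peak was in the cut lists of all 3 shAhR-2 libraries and of no pLKO library, and its full-list folds were 8.24 to 9.51 against 4.39 to 7.64. The cut-list peak of region 20 was also in 2 of the 3 Kelly shAhR-1 libraries. Since the region was in all 9 full Kelly lists, the call reflects where its peak ranked in the list. By −log10 p it ranked between the 27.8 and 61.1 percentile with pLKO, 35.1 and 69.0 with shAhR-1, and 88.0 and 91.3 with shAhR-2.

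Region 66 was the Kelly loss. Its cut-list peak (chr5:140892588-140894398, hg19) was in the 3 pLKO libraries and in 0 of 6 hairpin libraries, and it was also the 1 of 7 called between shAhR-1 and pLKO in Kelly (2.94% of all regions). Its full-list folds were 6.52, 4.79 and 6.66 with pLKO, 4.02 and 4.69 in shAhR-1 replicates 2 and 3, and 3.99, 3.87 and 4.52 with shAhR-2. All 3 pLKO values were above all listed hairpin values. In the full Kelly lists the peak ranked between the 56.1 and 78.4 percentile by −log10 p with pLKO. It ranked between 22.1 and 43.6 in the 2 shAhR-1 libraries, and between 76.6 and 81.7 with shAhR-2. The pLKO and shAhR-2 percentiles overlapped, and the shAhR-2 lists were the longest before the cut. The part of list length in the shAhR-2 call was not tested. In BE2C the folds were 4.71, 5.50 and 6.51 with pLKO, 6.69, 3.76 and 4.52 with shAhR-1, and 4.71, 5.55 and 4.23 with shAhR-2, and the groups overlapped.

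Region 65 was the BE2C loss with shAhR-2. Its cut-list peak (chr5:140888122-140888892, hg19) was in all 3 pLKO and all 3 shAhR-1 libraries and in no shAhR-2 library. It was therefore also the 1 of 19 called between the hairpins in BE2C (5.11% of all regions). Its full-list folds were 4.85, 5.26 and 4.65 with pLKO, 4.57, 2.90 and 3.97 with shAhR-1, and 3.18, 3.55 and 2.85 with shAhR-2. The pLKO values were above the shAhR-2 values, while shAhR-1 replicate 2 fell among the latter. In the full BE2C lists the peak ranked between the 56.85 and 62.6 percentile by −log10 p with pLKO. With shAhR-1 it ranked between 16.2 and 54.1, and with shAhR-2 between 52.2 and 64.6. The shAhR-2 lists were the longest before the cut. Median folds over whole lists were 5.73 to 6.33 with pLKO and 4.42 to 5.22 with shAhR-2. The part of list length and median fold in these calls was not tested. Between shAhR-1 and pLKO in BE2C 0 of 19 regions were called (3.06%), and between the hairpins in Kelly 0 of 7 (6.96%).

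**Figure D5:**
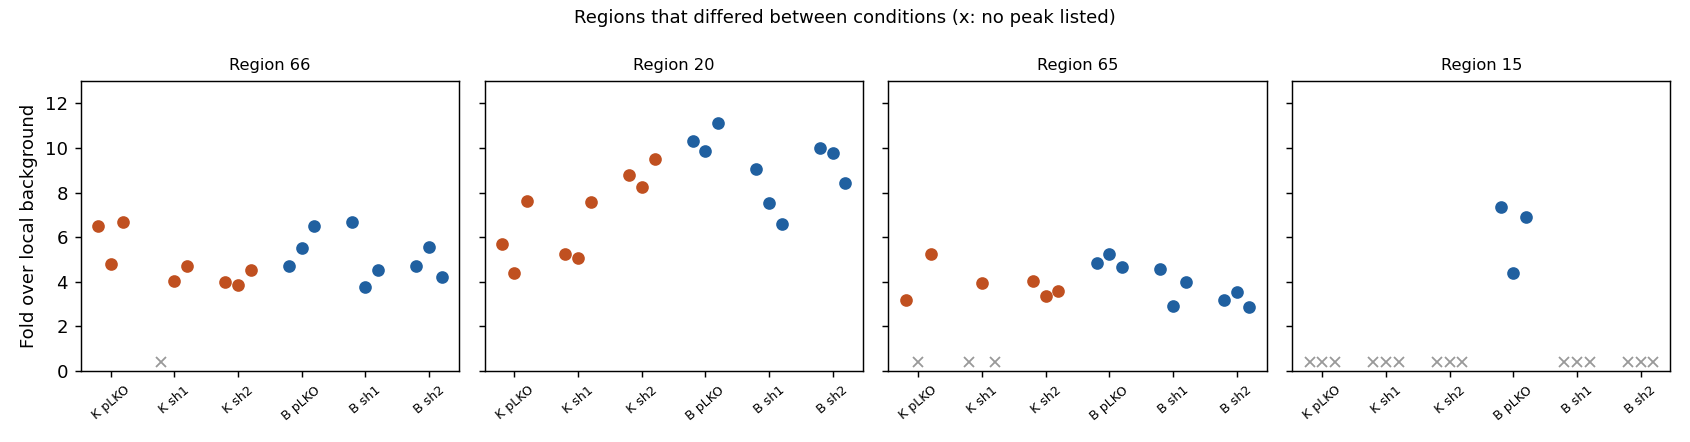
Fold over local background (linear scale) in the full lists at regions 66, 20 and 65, called between conditions in lists of equal length, and at region 15, listed only in BE2C pLKO libraries; points are libraries by line (K Kelly, B BE2C) and condition (sh1 shAhR-1, sh2 shAhR-2), and a cross marks a library with no listed peak. At region 20 the Kelly shAhR-2 libraries lie between 8.24 and 9.51, and at region 66 the Kelly pLKO libraries lie between 4.79 and 6.66.

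In the full lists, which differ in length between conditions, the counts were larger. Between shAhR-2 and pLKO, 7 of 52 regions were gained in Kelly, against 12.1% of all regions gained, and 3 of 41 in BE2C, against 13.5%. Between the hairpins, 11 of 52 were gained with shAhR-2 in Kelly (17.9% of all regions) and 3 of 41 in BE2C (14.8%). These shares sit beside the longer shAhR-2 lists, whose part in them was not tested. An example of a gain, picked after the values had been seen, was region 39. It was listed in all 3 Kelly shAhR-2 libraries at 5.20, 5.07 and 5.25 and in no other library. Region 15 (chr5:140356415-140356931, hg19), picked in the same way, was a loss, listed only in the BE2C pLKO libraries at 7.37, 4.37 and 6.89. Against pLKO it was the 1 of 41 regions lost in BE2C with shAhR-2 (0.16% of all regions) and with shAhR-1 (0.78%). In Kelly, 1 of 52 regions, region 26, was lost with shAhR-1 (0.908%) and 0 of 52 with shAhR-2 (0.217%).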

How the data were processed

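ATAC-seq peaks were analysed in 18 libraries, 3 for each line and condition. The submitters' processing notes name CASAVA 1.8.2, Trimmomatic 0.33, BWA 0.7.17, MACS2 2.1.0, deepTools 3.1.3 and the build hg19. Their settings, and whether duplicates were removed or cut sites shifted, which could move summits or change which peaks pass, were not given in the sources used here. The authors deposited 1 peak list per library. Each peak has an integer score (deposited by the authors and not used here), a linear fold enrichment at its summit deposited by the authors, and a −log10 p and −log10 q that the authors' caller gave. A missing peak means that none passed, not that the site was closed. Read depth is unknown.

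Peaks outside chromosomes 1 to 22 and X were left out. A peak belonged to the window by its summit. Lists were cut to equal length by −log10 p and compared with two-sided exact permutation tests, adjusted by Benjamini-Hochberg at 0.05 over 4 comparisons of window counts or over all regions of the genome. Scripts (Python 3.11.15, numpy 2.4.6, pandas 2.3.3) were tested on simulated data. Alternatives were full lists, −log10 q of at least 5, ranking by fold, any overlap, a peak covering 50% of a region, other presence rules, leaving out each library and a replicate block.

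Regions were named if present in every cut list of a line, or called between lines or conditions. Other named regions were picked with their values in view. The rule's other items, the most frequent regions of each cluster and the promoters of TAF7 and DIAPH1, and the planned counts of promoters with a peak need gene positions on hg19 and were not run. The RefSeq tables used (GRCh38.p14) gave gene names, gene order and promoter sequences only. The window and the lists were chosen with earlier results of these data known.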

Additional observations from a re-analysis of the deposited data

How the results depend on the processing

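The line difference in window peaks kept its direction but not its call with full lists (3.11, adjusted exact p = 0.517), with peaks at a −log10 q of 5 or more (4.44, 0.104) and with ranking by fold (1.67, 0.2). Matching within each condition reversed it to −1. The replicate block gave 1.78 (adjusted exact p = 0.156). Leaving out 1 library gave 0.944 to 2.06. Ranking by fold reversed shAhR-2 against pLKO to 0.311 and shAhR-2 against shAhR-1 to 1.46, neither called. Leaving out 1 library gave −0.750 to 0.065 for shAhR-1 against pLKO (reversed at 0.0233 and 0.065, without Kelly shAhR-1 replicates 1 and 2), −0.764 to −0.220 for shAhR-2 against pLKO, and −0.557 to 0.514 for shAhR-2 against shAhR-1 (reversed at 0.514 and 0.258, without Kelly shAhR-1 replicates 1 and 3). Window regions called between lines numbered 0 to 3 on leaving out 1 library. Regions called between shAhR-1 and pLKO went from 1 to 2 with full lists, 0 at that q and 3 with at least 2 of 3 libraries, and 1 to 2 on leaving out 1 library. For shAhR-2 against pLKO they went from 3 to 11 with full lists and 9 at that q, and 3 to 4 on leaving out 1 library. For shAhR-2 against shAhR-1 they went from 1 to 14 with full lists, 14 at that q and 2 with a peak covering 50% of the region, and 1 to 3 on leaving out 1 library. Over all regions the full lists called 0.984% (Kelly) and 0.927% (BE2C) for shAhR-1 against pLKO and 12.3% and 13.7% for shAhR-2 against pLKO; peaks at that q called 1.44% and 0.984%, 15.6% and 19.3%, and 26% and 21% for the 3 comparisons in turn. At least 2 of 3 libraries called 9.01% and 9.06% for shAhR-1 against pLKO, and 50% cover called 12.3% and 10.1% between the hairpins. Full lists are longer with shAhR-2, and the cause was not tested. Same-numbered libraries did not deviate together (correlations −0.0557 to 0.0289, 0 of 18 over 0.1). Whether the same number marks libraries that were handled together was not tested. The block called 0 of 9 window regions between lines and 0 of 19921 in all, so it cannot tell whether the window differs. The counts of promoters with a peak, with all their alternatives, were not run.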
